A study of Mus musculus with 2 samples.

Results

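Fibroblast growth factor (FGF) receptors and the inhibitors that feed back on them were followed across the cell types of the neonatal mouse hypothalamus. The set comprised 10 genes chosen by name out of the 20210 genes of the deposited merged table: Fgfr1, Fgfr2, Fgfr3, Fgfrl1, Il17rd, Spry1, Spry2, Spry4, Dusp6 and Etv5. All 10 were present in that table, with the Ensembl identifiers of the deposited matrices. On GRCm38 (GENCODE M21), Il17rd lies at chr14:27038941-27107286, Fgfrl1 at chr5:108692382-108706924, Spry1 at chr3:37639947-37644598 and Etv5 at chr16:22381309-22439719, and all are protein-coding genes. The set was proposed after lower levels of Il17rd, Fgfrl1 and Spry2 had been seen in astrocytes of these same libraries, so the astrocyte values of those genes chose the set and are given as a description.

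FGFs bind receptor tyrosine kinases together with heparan sulphate on the cell surface, and the activated receptor drives the RAS, RAF, MEK and ERK cascade. ERK activity in turn switches on transcription factors of the PEA3 group and a set of inhibitors, so that the level of these targets often serves as a readout of the pathway. In the hypothalamus, FGF signalling is known for its part in patterning the ventral diencephalon, in glial development and in the proliferation of tanycytes, the radial glia-like cells that line the floor of the third ventricle.

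Viable cells positive for tdTomato were sorted from dissociated tissue that held the median eminence and the arcuate nucleus, taken from CD-1 mice at postnatal day 10. Control mice had the genotype Ins2-Cre;tdTomato+/-, and double heterozygous mice (dHet) had the genotype Ins2-Cre;tdTomato+/-;Irx3/5+/-, with 1 copy of each of the transcription factor genes Irx3 and Irx5 lost. Both groups thus carried the Cre driven by the Ins2 promoter and the reporter, and the labelled cells are those with a history of that Cre. Each genotype was 1 droplet library made from a pool of 5 mice, so no test across animals was possible. All intervals below are 95% intervals that cover counting error only, and genotype cannot be told apart from pool, dissociation or sort.

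The merged table held 3479 control and 3939 dHet cells, with 63100794 and 71827597 unique molecular identifiers (UMIs, 1 per captured transcript molecule) and medians of 16508 and 17175 UMIs per cell. Only 4 barcodes were shared between the libraries. Cells were grouped without use of the 10 genes, and the groups were named from marker lists, which left 210 control and 125 dHet cells unnamed. Levels are UMIs of a gene per 1000000 UMIs of the class (CPM), and a gene was called measured in a class when it had at least 50 UMIs over both libraries. Ratios are dHet over control. For log2 ratios a pseudocount of 5 CPM was used in both libraries, which pulls the ratio of weakly expressed genes towards 0, and a log2 ratio at or beyond 1.5-fold served as the threshold of size. Irx3 stood at 23.9 CPM in control and 7.19 CPM in dHet astrocyte-like cells (ratio 0.301, 0.178 to 0.492), and Irx5 at 39.9 and 22.2 CPM (0.556, 0.406 to 0.757).

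The 3 signalling receptors were distributed differently over the cell classes. Fgfr3, long used as an astrocyte and radial glia marker, reached 541 CPM in control and 515 CPM in dHet astrocyte-like cells. The next class, cycling-like cells, stood at 69.9 and 94.2 CPM, below the astrocyte-like range of the libraries. Tanycyte-like cells had 23.5 and 18.4 CPM of Fgfr3, and neuron-like cells had 0.226 and 0.284 CPM. Fgfr1, the receptor with the broadest use in the nervous system, was highest in tanycyte-like cells at 152 and 133 CPM, where its library values overlapped those of the small pars tuberalis-like class (78.2 and 161 CPM). Ependymal-like cells followed at 109 and 118 CPM, then cycling-like cells at 54.1 and 94.2 CPM, whose range took in that of astrocyte-like cells at 77.2 and 68.4 CPM. Fgfr1 then stood at 38.2 and 41.8 CPM in oligodendrocyte precursor-like cells and at 35.1 and 34.3 CPM in neuron-like cells, and neither of these overlapped the class above it. Fgfr2 was highest in oligodendrocyte-like cells at 43.2 and 49.9 CPM, while astrocyte-like (35.4 and 24.1 CPM) and tanycyte-like cells (31.5 and 22.5 CPM) overlapped. In oligodendrocyte precursor-like cells Fgfr2 had 0 UMIs in the control library, which allows up to 4.40 CPM by the exact Poisson limit, and 1 UMI in the dHet library.

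Both inhibitors at the membrane were well above their neuron-like levels in astrocyte-like cells. Fgfrl1, a receptor-like protein that binds FGFs and lacks the tyrosine kinase domain, stood at 96.6 and 61.0 CPM in oligodendrocyte precursor-like cells, 87.7 and 43.1 CPM in astrocyte-like cells and 51.7 and 32.7 CPM in tanycyte-like cells. The library ranges of these neighbouring classes overlapped. Fgfrl1 in neuron-like cells was at 0.415 and 0.253 CPM. Il17rd, also called Sef, a transmembrane inhibitor of FGF and ERK signalling, stood at 94.4 and 36.6 CPM in astrocyte-like cells and at 17.9 and 15.7 CPM in oligodendrocyte precursor-like cells. Pars tuberalis-like cells, at 45.3 and 84.8 CPM of Il17rd, overlapped astrocyte-like cells and were the highest class in the dHet library. Those values rest on 40 and 28 UMIs from 63 control and 32 dHet cells. The 5 richest cells of each library together held 54.4% of these UMIs, so a few cells can set the order. The class also joins clusters whose shares differ between the libraries, as given below. Il17rd in tanycyte-like cells was at 7.13 and 10.6 CPM and in neuron-like cells at 2.79 and 2.37 CPM.

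The Sprouty genes encode cytoplasmic inhibitors of receptor tyrosine kinase signalling and split between glial classes. Spry1 was highest in oligodendrocyte precursor-like cells (202 and 183 CPM), followed by cycling-like (178 and 111 CPM) and pars tuberalis-like cells (121 and 164 CPM), and stood at 7.13 and 7.76 CPM in tanycyte-like cells. Spry4 had the same leading class, with 90.6 and 92.4 CPM in oligodendrocyte precursor-like cells against 20.9 and 16.2 CPM in astrocyte-like cells and 2.97 and 3.67 CPM in tanycyte-like cells. Spry2 was instead highest in astrocyte-like cells, at 123 and 70.9 CPM, where its library range overlapped that of cycling-like cells (78.9 and 52.6 CPM). All 3 Sprouty genes were thus lower in tanycyte-like than in astrocyte-like and oligodendrocyte precursor-like cells in both libraries, and they differed in which glial class led.

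The remaining members are the ERK phosphatase gene Dusp6 and Etv5, a PEA3 group transcription factor gene that FGF signalling induces. Dusp6 in astrocyte-like cells (46.3 and 30.0 CPM) overlapped both oligodendrocyte precursor-like cells (42.9 and 47.1 CPM) and tanycyte-like cells (35.95 and 25.3 CPM), which did not overlap each other. It was highest in pars tuberalis-like cells (65.7 and 118 CPM), on 58 and 39 UMIs. The 5 richest cells of each library together held 54.6% of these UMIs. Etv5 was highest in cycling-like cells (99.2 and 58.2 CPM), which overlapped oligodendrocyte precursor-like cells at 52.5 and 76.7 CPM and, through them, the astrocyte-like values of 75.7 and 46.9 CPM. It was at 15.5 and 13.1 CPM in tanycyte-like cells. No Etv5 UMI was counted in oligodendrocyte-like or ependymal-like cells, which in the control library allows up to 6.64 and 8.93 CPM by the exact Poisson limit.

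**Figure D1:**
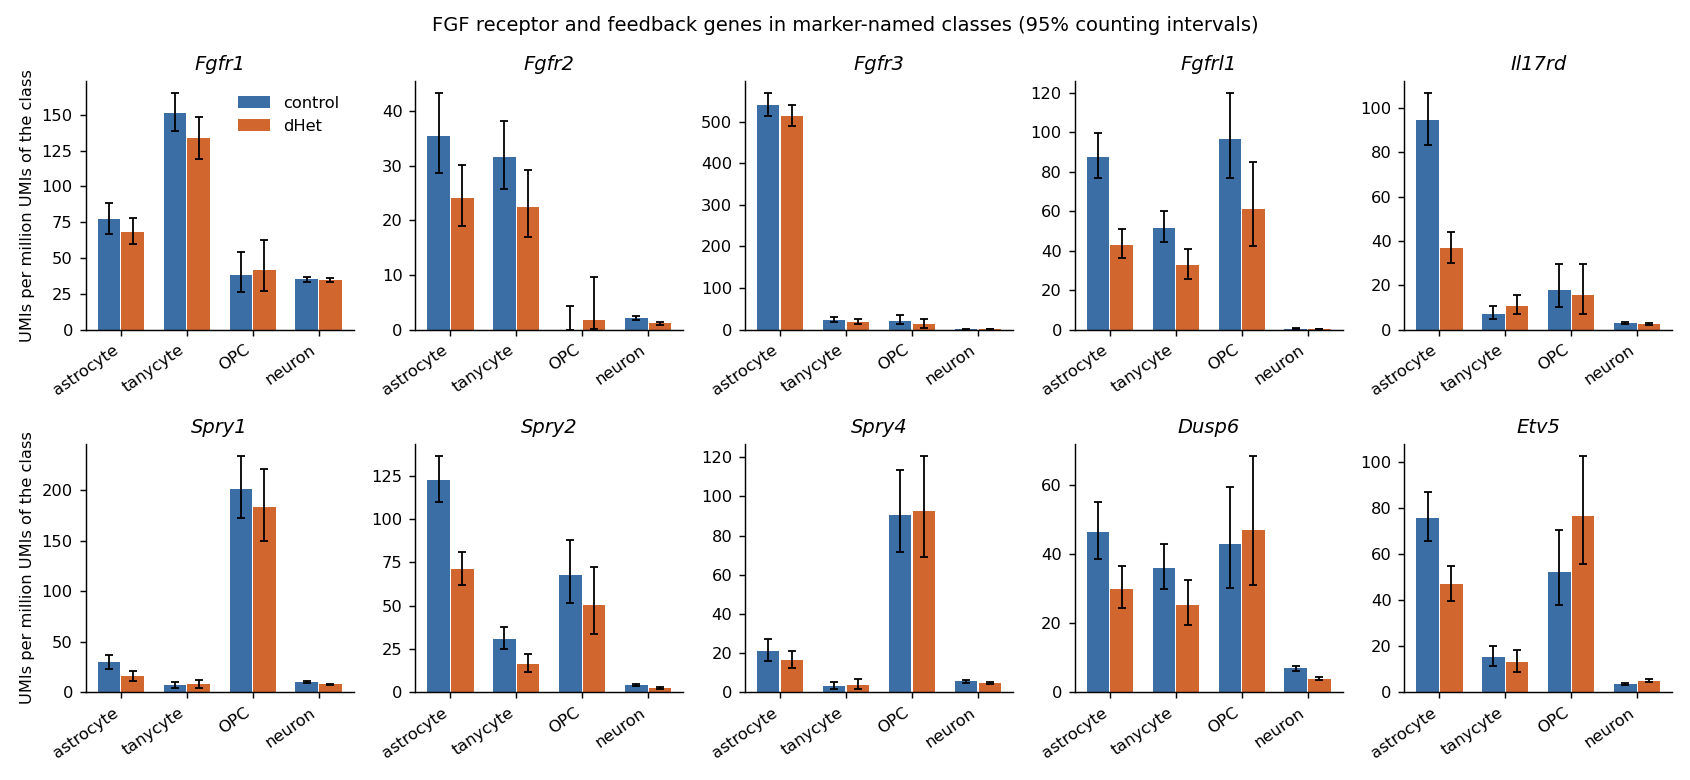
Levels of the 10 genes in CPM (bars, linear axes from 0) in 4 classes, with control in blue and dHet in orange. Error bars are 95% Poisson intervals on 1 library each, and OPC stands for oligodendrocyte precursor-like cells. Among these 4 classes, Fgfr3, Il17rd and Spry2 are highest in astrocyte-like cells, Fgfr1 in tanycyte-like cells, and Spry1 and Spry4 in oligodendrocyte precursor-like cells.

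Across the 30 clusters with at least 50 cells, the genes whose log2 levels were most like each member's were ranked by Pearson's r. It is a description, since the clusters share the same 2 libraries and differ in depth. For Fgfr3 these genes were Acsbg1 (r = 0.98), Gm266 (0.97) and Ednrb (0.96), and for Fgfrl1 they were Bcan (0.97), Caskin2 (0.95) and Cbr3 (0.95). Spry1 was most like Cspg4 (0.90), Pdgfra (0.89) and Ppp1r14b (0.88), of which Cspg4 and Pdgfra are defining genes of oligodendrocyte precursors, and Pdgfra also led for Spry4 (0.82). Spry2 was closest to Mfge8, Fabp7 and Itgav (all 0.92). Dusp6 was closest to Trib1 (0.81), Etv5 (0.80) and Spry2 (0.80), so that 2 of its 3 nearest genes were members of the set. Fgfr1 was closest to Lgr4 (0.87), Ildr2 (0.81) and Ano6 (0.81), and Fgfr2 to Tmem205, Arhgap5 and Pld2 (0.89, 0.89 and 0.88). Etv5 was closest to Etv4 (0.91), its paralogue in the PEA3 group, and to the Notch target genes Nrarp (0.87) and Hes5 (0.84). For Il17rd the nearest genes were Kmt2c (0.91), Kmt5b (0.89) and the Hedgehog receptor gene Ptch1 (0.88).

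In astrocyte-like cells (426 control and 442 dHet) every member had a lower level in the dHet library than in the control library. All 10 genes were measured, 5 of them were lower by 1.5-fold or more and none was higher, where 2.0% of the 9903 genes measured in these cells were lower and 3.34% higher by that fold. The contrast is the one that chose the set, so nothing is read from that count. The members' median log2 ratio was -0.59, and that of all measured genes was -0.004.

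Among the membrane inhibitors, Il17rd had 253 UMIs in control and 117 in dHet cells, or 94.4 (83.1 to 107) and 36.6 (30.2 to 43.8) CPM. The intervals do not meet, and the ratio was 0.387 (0.308 to 0.484). Fgfrl1 stood at 87.7 and 43.1 CPM, a ratio of 0.492 (0.396 to 0.610). Both genes were thus at less than 50% of the control level in the dHet library.

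The cytoplasmic inhibitors and targets were also lower. Spry2 stood at 123 and 70.9 CPM (ratio 0.578, 0.486 to 0.687), and Spry1 at 29.5 and 15.6 CPM (0.530, 0.364 to 0.765). Etv5 stood at 75.7 and 46.9 CPM (0.619, 0.498 to 0.768), and Dusp6 at 46.3 and 30.0 CPM (0.649, 0.492 to 0.854). All 4 intervals of the ratio lie below 1, and Dusp6 did not reach 1.5-fold on the log2 scale with its pseudocount. Spry4, with 56 and 52 UMIs, had a ratio of 0.778 (0.523 to 1.16), which holds 1.

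Among the receptors, Fgfr3 and Fgfr1 had the ratios nearest to 1 of all members. Fgfr3 had 1451 and 1649 UMIs, or 541 and 515 CPM, and a ratio of 0.952 (0.887 to 1.02). Fgfr1 had a ratio of 0.886 (0.730 to 1.08), and Fgfr2, at 35.4 and 24.1 CPM, had a ratio of 0.679 (0.496 to 0.927). Fgfr3, the member with the most UMIs, had the narrowest interval and the ratio nearest to 1, and its sign turned in 3 of the 18 alternatives, with a log2 ratio of 0.11 in cells thinned to 4000 UMIs. The other 9 members kept a negative log2 ratio in every alternative that gave them a value, and the alternatives rework the same libraries.

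**Figure D2:**
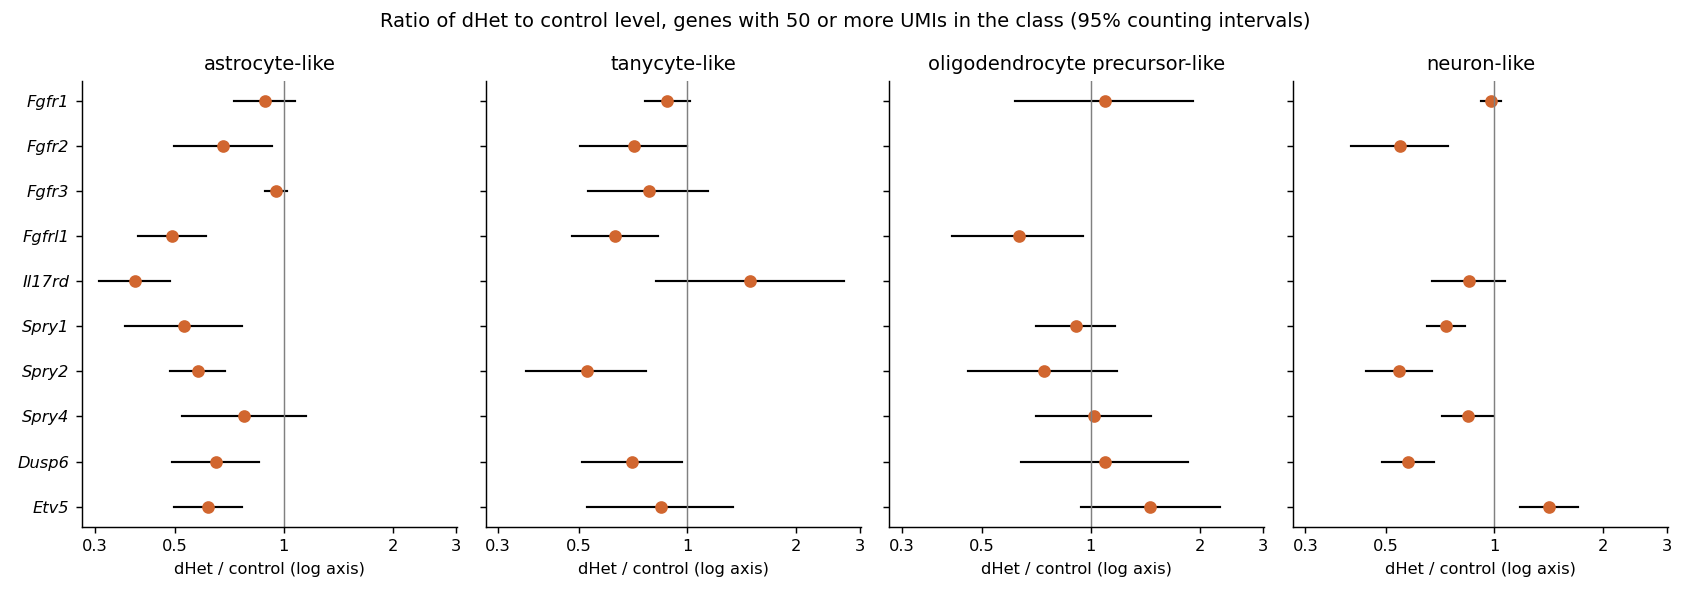
Ratios of dHet to control level (points, log axis) with 95% counting intervals (lines) for members with 50 or more UMIs in the class. In astrocyte-like cells all 10 points lie left of 1, while in oligodendrocyte precursor-like cells 4 of 7 lie right of it.

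Shares of single astrocyte-like cells were compared at matched depth. Cells were thinned at random to 4000 UMIs, which left 315 control and 361 dHet cells and left out 111 and 81 shallower ones. An Il17rd UMI was present in 34.9% of control and 14.4% of dHet cells after thinning (41.3% and 21.5% before), and in 1.19% and 1.37% of neuron-like cells, whose median depth before thinning was 22832 and 21266 UMIs against 5665 and 6488.5 in astrocyte-like cells. For Fgfrl1 the shares were 30.8% and 16.6% (37.3% and 26.0% before thinning), and in neuron-like cells 0% of 2178 cells, which allows up to 0.169% by the Clopper-Pearson limit, and 0.0352% of 2842. For Etv5 they were 26.0% and 14.7% (33.8% and 27.1% before thinning), and in neuron-like cells 1.52% and 2.11%. Control astrocyte-like cells held on average 2.89 of the 10 members with a UMI and dHet cells 2.13. Cells with 3 or more members made up 59.7% of the control cells (188 of 315) and 33.8% of the dHet cells (122 of 361), and cells with none 2.54% and 6.65%. The 5 cells richest in a member in each library together held 3.97% to 20.4% of its UMIs.

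**Figure D3:**
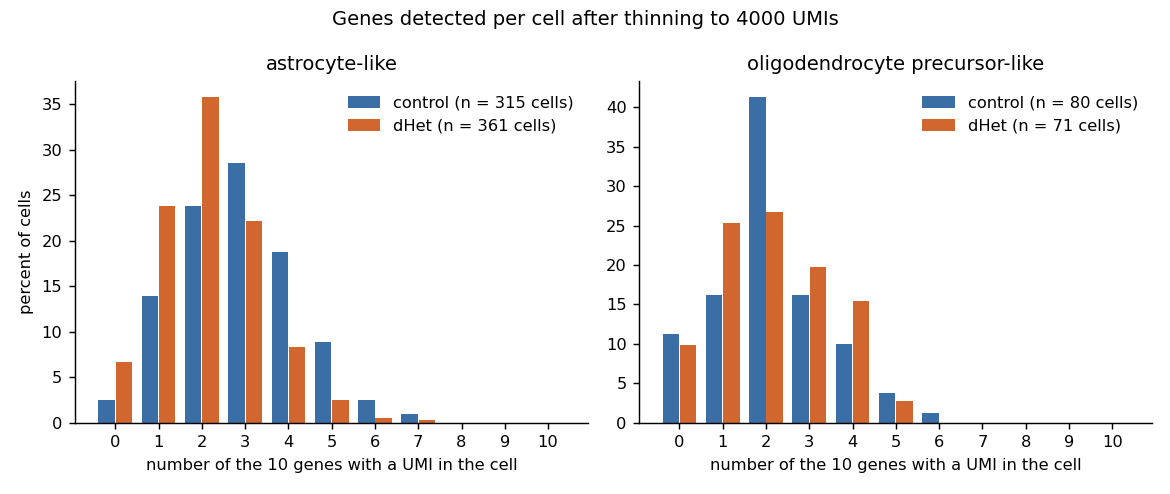
Percent of cells (linear axis) by the number of the 10 genes with a UMI, after thinning each cell to 4000 UMIs, in control (blue) and dHet (orange) cells. In astrocyte-like cells the dHet distribution lies to the left of control (mean 2.13 against 2.89), and in oligodendrocyte precursor-like cells the means are 2.14 in both libraries.

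Astrocyte-like cells comprised a cluster of 394 control and 406 dHet cells, where Il17rd stood at 101 and 40.1 CPM, and a shallow cluster of 32 and 36 cells, where it had 5 UMIs in each library. With finer clustering (Leiden resolution 2) the larger astrocyte-like clusters held 174 control and 96 dHet, 152 and 202, and 93 and 129 cells. Sums over the class thus weight these finer clusters differently in the libraries. A further astrocyte-like cluster of 12 and 20 cells was led by Vip and had a median of 27305 UMIs per cell. Neuron markers were detected in a median of 96.9% of its cells. How many of its cells belong to the class at resolution 1 was not counted. The part of this mix of clusters in the members' values was not tested. Neuron marker RNA in astrocyte-like cells differed between the libraries, and cells rich in it were left out as an alternative. The astrocyte markers summed to 14939 CPM in control and 14287 CPM in dHet cells, with 14 of 14 seen in both. Neuron markers summed to 1828 and 3036 CPM (14 of 14 seen in both), tanycyte markers to 902 and 938 CPM (14 and 13 of 14 seen) and oligodendrocyte precursor markers to 2331 and 1960 CPM (11 and 12 of 12 seen). The oligodendrocyte markers Mog, Ermn and Opalin were at 0 in both libraries. When the 25% of cells richest in neuron marker UMIs was left out, which brought those markers to 279.6 and 389.9 CPM, the members' median log2 ratio was -0.46, Il17rd had a log2 ratio of -1.29 against -1.26 with all cells, and 4 members were lower by 1.5-fold. The immediate early and heat shock genes, which respond to dissociation and to ERK activity, had a median log2 ratio of 0.02 in astrocyte-like cells, with 8 of 16 measured genes higher and 8 lower. They went both ways beyond counting error. Fos stood at 109 and 81.9 CPM (0.749, 0.632 to 0.888), Egr1 at 43.6 and 33.1 CPM (0.759, 0.578 to 0.996), Ier2 at 35.4 and 24.1 CPM (0.679, 0.496 to 0.927) and Btg2 at 88.8 and 62.5 CPM (0.704, 0.580 to 0.853). Jun stood at 57.1 and 81.9 CPM (1.43, 1.17 to 1.76) and Jund at 156 and 218 CPM (1.40, 1.23 to 1.58). Their part in the members' values was not tested.

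The other genes of the pathway in astrocyte-like cells were taken by list. Among other ERK targets and inhibitors, 8 of 11 measured genes were lower and none passed 1.5-fold, with a median log2 ratio of -0.25. Examples were the PEA3 gene Etv4 at 119 and 88.1 CPM (0.743, 0.631 to 0.875), the RAS and ERK inhibitor gene Spred1 at 234 and 183 CPM (0.784, 0.700 to 0.879) and Rasa1, a RAS GTPase-activating protein gene, at 57.4 and 41.9 CPM (0.729, 0.574 to 0.925). Erf, a transcriptional repressor gene, was at 24.6 and 33.4 CPM (1.36, 0.990 to 1.87). Of the coreceptor and heparan sulphate genes, 10 of 14 were lower, with 1 lower and 1 higher by 1.5-fold and a median of -0.15. These were the glypican gene Gpc1 at 30.2 and 16.2 CPM (0.538, 0.372 to 0.771) and the sulphotransferase gene Hs6st2 at 7.09 and 16.2 CPM (2.29, 1.33 to 4.11). The signal relay had 9 of 19 genes lower, none past 1.5-fold and a median of 0.01, with Ptpn11, encoding the phosphatase SHP2, at 40.3 and 54.4 CPM (1.35, 1.06 to 1.73). Of the ligands only Fgf1 (33.6 and 26.2 CPM) and Fgf2 (19.8 and 23.4 CPM) were measured.

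Promoter sequence was examined because 4 members, Il17rd, Fgfrl1, Spry1 and Spry2, stood at under 0.6 of their control level together in astrocyte-like cells. RefSeq promoter windows (GRCm38.p6) were matched for 8 of the 10 members, and the 250 bases before the annotated start of these 4 are printed 5′ to 3′ on the gene's strand. Capitals mark CCGGAA, a string recognised by ETS factors such as Etv5. Shorter or other forms of ETS sites were not searched and are not marked. Il17rd lies on the plus strand (chr14:27038751-27039000), as do Fgfrl1 (chr5:108693979-108694228) and Spry1 (chr3:37639697-37639946), and Spry2 on the minus strand (chr14:105896820-105897069). For Il17rd and Fgfrl1 the RefSeq starts differ from the GENCODE gene starts given above. The Fgfrl1 window lies inside the GENCODE gene, and the Il17rd window runs past the GENCODE start.
Il17rd: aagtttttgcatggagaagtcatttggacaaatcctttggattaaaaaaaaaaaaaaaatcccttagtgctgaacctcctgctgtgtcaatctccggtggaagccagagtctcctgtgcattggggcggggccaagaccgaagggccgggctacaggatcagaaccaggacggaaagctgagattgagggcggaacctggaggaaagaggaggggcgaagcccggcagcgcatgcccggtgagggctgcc
Fgfrl1: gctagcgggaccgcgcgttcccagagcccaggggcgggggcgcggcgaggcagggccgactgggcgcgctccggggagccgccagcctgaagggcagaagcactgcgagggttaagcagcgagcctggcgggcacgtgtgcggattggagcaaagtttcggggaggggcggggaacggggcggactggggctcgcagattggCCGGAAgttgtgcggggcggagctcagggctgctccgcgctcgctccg
Spry1: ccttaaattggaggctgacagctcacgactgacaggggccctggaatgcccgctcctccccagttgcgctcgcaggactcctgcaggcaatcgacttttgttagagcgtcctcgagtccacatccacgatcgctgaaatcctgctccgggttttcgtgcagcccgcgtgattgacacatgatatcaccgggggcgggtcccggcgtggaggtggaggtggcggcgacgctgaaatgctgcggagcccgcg
Spry2: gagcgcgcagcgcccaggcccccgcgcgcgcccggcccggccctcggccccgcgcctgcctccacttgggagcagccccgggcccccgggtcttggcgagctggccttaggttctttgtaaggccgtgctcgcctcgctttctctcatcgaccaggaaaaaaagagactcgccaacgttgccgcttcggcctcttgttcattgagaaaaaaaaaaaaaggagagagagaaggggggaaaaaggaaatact
CCGGAA was searched on both strands and was found once, in Fgfrl1, 48 bases before the RefSeq start. It is present in 12.03% of all 32851 windows of this length. TGAATGAA, a site of the repressor capicua, and TGACTCA, an AP-1 site, were searched in the same way. These exact strings were not found in the windows of the 8 members. Other forms of either site were not searched, and the Spry2 window holds ttcattga, the reverse complement of a near form of TGAATGAA. TGAATGAA and TGACTCA are present in 1.08% and 4.46% of all windows. GC content was 54.4% for Il17rd, 73.6% for Fgfrl1 and 62.4% for both Spry1 and Spry2.

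Tanycyte-like cells (331 control and 261 dHet) had lower values of most members in dHet, and whether they differed from astrocyte-like cells in this was not tested. Of 8 measured members 7 were lower in dHet, 2 by 1.5-fold or more and none higher by that fold, and the median log2 ratio was -0.35. Of the 9954 genes measured in these cells, 1.94% were lower and 2.29% higher by 1.5-fold, with a median of -0.01. The 2 were Spry2, at 30.9 and 16.3 CPM (0.528, 0.357 to 0.768), and Fgfrl1, at 51.7 and 32.7 CPM (0.632, 0.479 to 0.828). Dusp6 stood at 35.95 and 25.3 CPM (0.704, 0.510 to 0.964), and Fgfr2 at 31.5 and 22.5 CPM (0.713, 0.505 to 0.996). Il17rd, the member with the lowest ratio in astrocyte-like cells, was at 7.13 and 10.6 CPM here (1.49, 0.821 to 2.71) with 24 and 26 UMIs, and the interval holds 1. Spry1 and Spry4, with 43 and 19 UMIs over both libraries, were not measured.

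Tanycyte-like cells fell into a cluster marked by Rax and Crym (237 control and 203 dHet cells) and a cluster led by Scn7a and Cldn10 (94 and 58 cells), and the members were not alike in them. Fgfr1 stood at 82.2 and 100.1 CPM in the Rax and Crym cluster against 287 and 234 CPM in the Scn7a and Cldn10 cluster. Dusp6 stood at 8.98 and 6.53 CPM against 88.7 and 81.8 CPM, and Fgfrl1 at 27.8 and 16.3 CPM against 98.4 and 81.8 CPM. These 3 genes did not overlap between the clusters. Fgfr2, Spry1, Spry2, Spry4 and Etv5 were also higher in the Scn7a and Cldn10 cluster without overlap. Etv5, for example, stood at 5.39 and 9.25 CPM against 35.1 and 24.5 CPM. Spry1, Spry4 and Il17rd were not measured in either cluster. Dusp6 and Etv5 were not measured in the Rax and Crym cluster, and Fgfr3 was not measured in the Scn7a and Cldn10 cluster. The share of all genes without overlap was not counted, so nothing is read from the number of members. Fgfr3 had the opposite order, with 28.3 and 23.9 CPM in the Rax and Crym cluster and 14.1 and 1.64 CPM in the other. The latter 2 values rest on 16 and 1 UMIs. The Scn7a and Cldn10 cluster held 94 of 331 control and 58 of 261 dHet tanycyte-like cells, so sums over the class weight the clusters differently in the libraries.

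Within clusters, the ratio of Fgfr1 was 1.22 (0.987 to 1.503) in the Rax and Crym cluster and 0.814 (0.664 to 0.994) in the other. The ratio of Dusp6 was 0.727 (0.324 to 1.56) and 0.922 (0.643 to 1.31), and both intervals hold 1. In the Rax and Crym cluster Dusp6 had only 20 and 12 UMIs and was not measured. Spry2 stood at 58.9 and 26.2 CPM in the Scn7a and Cldn10 cluster (0.445, 0.240 to 0.776) and at 16.6 and 13.1 CPM in the Rax and Crym cluster (0.786, 0.450 to 1.35). Fgfrl1 had a ratio of 0.586 (0.366 to 0.921) in the Rax and Crym cluster and 0.831 (0.583 to 1.17) in the other. Il17rd stood at 7.63 and 7.07 CPM in the Rax and Crym cluster and at 6.15 and 21.3 CPM in the other, where it had 7 and 13 UMIs. Spry2 and Fgfrl1 were thus lower in dHet in both clusters, each with an interval below 1 in only 1 of them, and the difference between clusters was not tested.

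**Figure D4:**
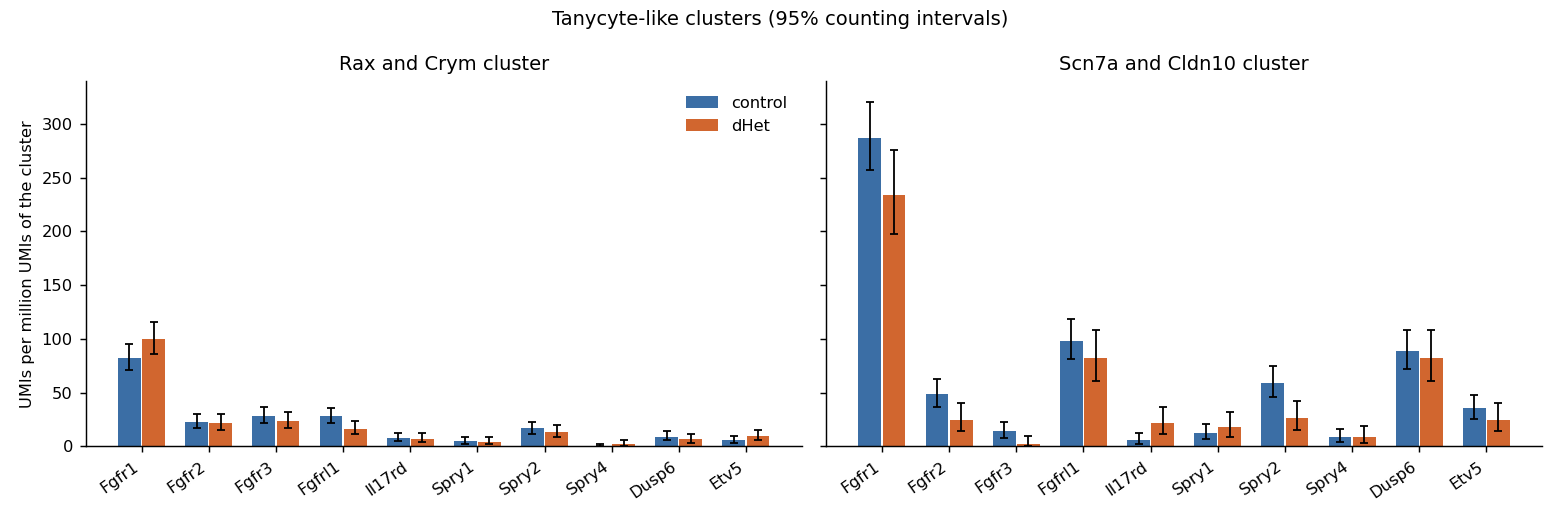
Levels of the 10 genes in CPM (bars, linear axis from 0) in the 2 tanycyte-like clusters, control in blue and dHet in orange, with 95% Poisson intervals on 1 library each. All genes but Fgfr3 and Il17rd are higher in the Scn7a and Cldn10 cluster than in the Rax and Crym cluster in both libraries.

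In tanycyte-like cells the immediate early and heat shock genes differed between the libraries as well. Of 27 measured genes 24 were lower in dHet, 17 by 1.5-fold or more, with a median log2 ratio of -0.81, as for Fos at 1317 and 570.3 CPM (0.433, 0.407 to 0.460) and Egr1 at 329 and 146 CPM (0.444, 0.393 to 0.501). Their part in the values of Spry2 and Dusp6 was not tested. Neuron markers summed to 2799 and 3620 CPM and ependymal markers to 1993 and 1620 CPM. Median depth was 9937 and 8082 UMIs per cell. When the shallowest 25% and the deepest 25% of tanycyte-like cells were left out, the members' median log2 ratio was 0.08, and the log2 ratio was 0.88 for Dusp6, 0.98 for Etv5 and 0.18 for Fgfr1, all of the opposite sign to that in all cells. Fgfrl1 then stood at -0.01 and no longer passed 1.5-fold, while Spry2 stood at -0.88. Fgfr1 also turned, to 0.03, when the 25% of cells richest in neuron marker UMIs was left out, where Fgfrl1 (-0.51) and Spry2 (-0.50) both missed 1.5-fold. The other FGF lists had medians of -0.04 (4 ligands), 0.03 (10 coreceptor and heparan sulphate genes), 0.03 (18 relay genes) and 0.01 (9 other targets). Fgf10 and Fgf18, ligands known in tanycytes, stood at 68.3 and 69.8 CPM (1.02, 0.833 to 1.25) and 89.7 and 87.8 CPM (0.978, 0.817 to 1.17). Spred3 was the gene of these lists that passed 1.5-fold, at 8.62 and 17.6 CPM (2.04, 1.24 to 3.38).

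Oligodendrocyte precursor-like cells (96 control and 78 dHet) had a median log2 ratio of 0.03 over 7 measured members, with 4 higher and 3 lower. Fgfrl1 alone passed 1.5-fold, at 96.6 and 61.0 CPM (0.631, 0.412 to 0.9495), and none was higher by that fold, where 3.55% of 5546 measured genes were lower and 3.44% higher by 1.5-fold. Spry1, at 202 and 183 CPM (0.908, 0.705 to 1.16), and Spry4, at 90.6 and 92.4 CPM (1.02, 0.704 to 1.47), differed by less than counting error. Etv5 stood at 52.5 and 76.7 CPM (1.46, 0.940 to 2.27) with 44 UMIs in each library, and Spry2 at 68.0 and 50.5 CPM (0.743, 0.458 to 1.18). Both intervals hold 1. On average 2.14 members had a UMI per cell after thinning in the control cells and 2.14 in the dHet cells. Neuron markers summed to 3317 and 2257 CPM in this class, and 13 of 14 measured immediate early and heat shock genes were lower in dHet, with a median log2 ratio of -0.67. The members' median log2 ratio was below 0 in 11 of 17 alternatives, and was -0.47 with the 25% of cells richest in neuron marker UMIs left out, so it has no fixed direction. Among the other FGF lists, 1 of 9 measured coreceptor and heparan sulphate genes passed 1.5-fold, Gpc1 at 41.7 and 26.1 CPM, and none of 14 relay genes (10 lower, median -0.10) or 8 other targets (4 lower, median -0.02) did.

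Cycling-like cells, defined by markers of division, numbered 37 and 34. The 5 richest cells of each library together held 45.4% to 100% of each member's UMIs. Spry1 stood at 178 and 111 CPM (0.622, 0.414 to 0.921), Etv5 at 99.2 and 58.2 CPM (0.586, 0.331 to 1.01) and Fgfr1 at 54.1 and 94.2 CPM (1.74, 1.00 to 3.07). A few cells can therefore set these values.

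In neuron-like cells (2258 control and 2903 dHet) 8 members were measured, 7 were lower and 1 higher in dHet, and none passed 1.5-fold on the log2 scale with its pseudocount. Of 14498 measured genes 0.179% were lower and 0.103% higher by that fold, the members' median log2 ratio was -0.16 and that of all measured genes -0.02. Fgfr1 stood at 35.1 and 34.3 CPM (0.980, 0.920 to 1.04). Dusp6 stood at 6.90 and 3.98 CPM (0.577, 0.489 to 0.679), and Spry2 at 4.37 and 2.38 CPM (0.545, 0.441 to 0.672). Fgfr2 was at 2.07 and 1.14 CPM (0.548, 0.401 to 0.744) and Spry1 at 10.5 and 7.69 CPM (0.735, 0.649 to 0.831). These 4 genes were low in neurons in both libraries and had intervals below 1, and the plain ratios of Dusp6, Spry2 and Fgfr2 were beyond 1.5-fold while their log2 ratios with the pseudocount were not. The class median was -0.17 without the neuron-like clusters whose leading genes included more markers of some other class. Etv5 went the other way, at 3.56 and 5.04 CPM (1.41, 1.18 to 1.70). Fgfr3 and Fgfrl1, with 30 and 38 UMIs, were not measured.

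Free RNA from glia was gauged by the level of a gene in neuron-like cells as a percent of its astrocyte-like level. The median over the 14 astrocyte markers was 0.0803% in control and 0.0901% in dHet. Most markers lay near it, while Aldoc (12.4% and 11.3%) and Slc1a2 (1.30% and 1.28%) read high in neuron-like cells and bring the summed markers to 1.12% and 1.26%, against 0.102% and 0.0967% without them. Cbs (0.797% and 0.644%) and Ntsr2 (0.261% and 0.187%) also lay above that median. Fgfr3 stood at 0.0418% and 0.0551%, and Fgfrl1 at 0.473% and 0.586%. Spry2 stood above these, at 3.56% and 3.36%, as did Etv5 at 4.71% and 10.7%, Dusp6 at 14.9% and 13.3% and Spry1 at 35.5% and 49.2%. The neuron-like values of Fgfr3 thus lay under the marker median, and those of Fgfrl1 above it but under the marker Cbs. Those of Spry2, Etv5, Dusp6 and Spry1 lay further above it, with Spry2 and Etv5 still under the marker Aldoc. Whether any of these values reflect free RNA or expression in neurons was not tested. Free RNA from other glia was not gauged in this way.

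Neuron types differed in these genes. Over the 20 neuron-like clusters Fgfr1 ranged from 10.4 CPM in the Vip and Avp cluster to 79.7 CPM in the Adcyap1 and Fezf1 cluster, with a median of 28.6 CPM. Spry1 ranged from 2.01 to 13.4 CPM and Dusp6 from 1.42 to 14.0 CPM. Among clusters with at least 20 UMIs of the gene, Dusp6 was lower in dHet in 11 of 14, Spry2 in 8 of 9, Spry1 in 13 of 15 and Spry4 in 11 of 14, and Fgfr1 in 13 of 20. Over all neuron-like cells, 8420 of 14498 measured genes were lower by any amount, and the share per cluster was not counted. The clusters come from the same 2 libraries and are not replicates. In the Bcl11b and Pthlh cluster Dusp6 had 71 and 32 UMIs and stood at 14.8 and 8.79 CPM (0.594, 0.378 to 0.913). In the Vip and Avp cluster Spry2 had 28 and 14 UMIs, or 14.5 and 6.34 CPM (0.437, 0.213 to 0.858). Lower values of Dusp6 and Spry2 were seen in most of the clusters that could be counted, within this pair of libraries. Most of their single-cluster intervals hold 1, as for Dusp6 in the Agrp and Npy cluster (0.606, 0.328 to 1.12). The Bcl11b and Pthlh and the Vip and Avp examples were chosen after their values were seen.

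Etv5 was higher in dHet in 8 of the 11 clusters with at least 20 UMIs. Over all neuron-like cells, 6078 of 14498 measured genes were higher by any amount. It was at 4.54 CPM (23 UMIs) in control and 11.1 CPM (97 UMIs) in dHet neurons of the Agrp and Npy cluster (2.45, 1.54 to 4.05), the neurons that drive feeding. In the Pomc cluster, whose neurons promote satiety, Etv5 stood at 4.45 and 7.18 CPM (1.61, 0.863 to 3.20), and in the Tac2 cluster at 10.0 and 2.34 CPM (0.233, 0.0582 to 0.691). The Agrp and Npy cluster made up 7.44% of control and 11.3% of dHet neuron-like cells. Without it, a choice made after its values were seen, Etv5 stood at 3.46 and 4.06 CPM (1.17, 0.956 to 1.44), while Dusp6 (0.584, 0.492 to 0.692) and Spry2 (0.542, 0.434 to 0.676) stayed near their values over all neurons.

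**Figure D5:**
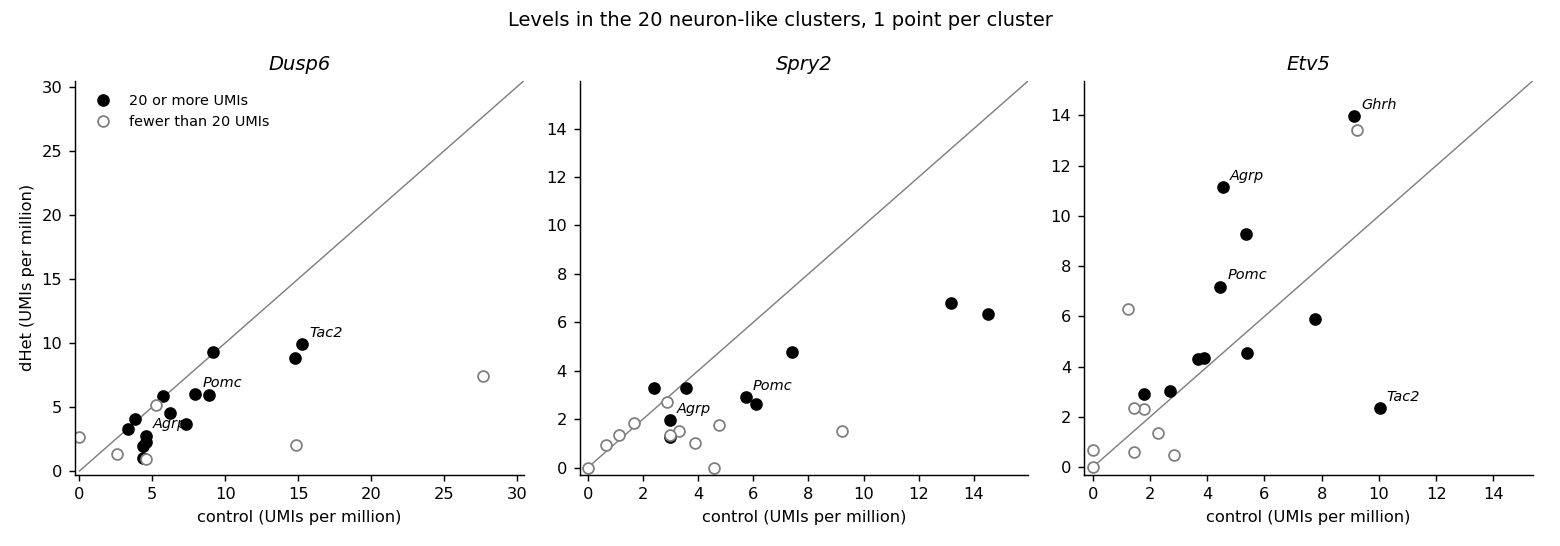
Control (x) against dHet (y) level in CPM for Dusp6, Spry2 and Etv5, 1 point per neuron-like cluster, filled where the cluster had at least 20 UMIs of the gene. The grey line marks equal levels, and 8 of 11 filled points for Etv5 lie above it, the Agrp cluster among them.

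The neuronal immediate early and heat shock genes were lower in 21 of 28 measured cases with a median log2 ratio of -0.40, as for Fos at 212 and 67.9 CPM (0.320, 0.309 to 0.332), and their part in the lower Dusp6 and Spry2 was not tested. The rest of the pathway in neurons had medians between -0.06 and -0.01 over its 4 lists, and none of its genes passed 1.5-fold. The largest difference on the log2 scale among them was that of Frs3, an FGF receptor substrate gene, at 38.4 and 24.4 CPM (0.635, 0.594 to 0.679). The ligand gene Fgf9 stood at 24.5 and 20.2 CPM (0.826, 0.764 to 0.893).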

How the data were processed

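Per the file headers, the deposited files hold raw UMI counts made by the authors with Cell Ranger 3.0.2, and, as the submitters' processing notes name it, the mm10 genome. The sources used here do not give the gene annotation behind them. The merged table (20210 of 31053 genes) supplied the cells, and its member counts equalled the matrices in every entry. Clustering used scanpy 1.11.5 without the 10 genes, the other FGF lists, Irx3 or Irx5: 2000 variable genes, 30 principal components, 15 neighbours and Leiden resolution 1. A name needed 3 markers detected in 25% of cells. Scrublet marked 38 of 7418 cells (0.512%), which were kept; an alternative left out the 4% with the highest scores. With 1 library per genotype, intervals are exact Poisson, Clopper-Pearson or conditional binomial, and ratios were checked on simulated data. Members, lists and tests were chosen with earlier results of these data known. Named genes were all members, up to 4 per FGF list and class with the largest log2 ratio, the 3 most alike per member, and markers. Neuron clusters were named in the text by leading genes, and those singled out, with the immediate early examples, were chosen after their values were seen.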

Additional observations from a re-analysis of the deposited data

Results flagged for a closer look

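Etv5 differed in direction between classes. It was higher in dHet than in control neuron-like cells, with a ratio of 1.41, and lower in astrocyte-like cells, with a ratio of 0.619, and both counting intervals lie clear of 1. The neuron-like interval rests on 1 cluster: without the Agrp cluster, which made up 7.44% of control and 11.3% of dHet neuron-like cells, the ratio was 1.17 (0.956 to 1.44). With 1 library per genotype the difference between the classes was not tested.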

How the results depend on the processing

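No paired analysis was possible because each genotype was 1 library, so no replicate could be left out either. The members' median log2 ratio stayed below 0 in all 18 alternatives for astrocyte-like cells (-0.73 to -0.44) and all 18 for neuron-like cells, and in 16 of 17 for tanycyte-like cells. The astrocyte-like contrast chose the set, and the alternatives rework the same libraries, so its sign there is given as a description only. In oligodendrocyte precursor-like cells it ranged from -0.47 to 0.04 and was below 0 in 11 of 17. Cells of middle depth gave a median log2 ratio of 0.0825 in tanycyte-like cells, where 1 member was then lower and 2 higher by 1.5-fold, turned Dusp6 there to 0.8756, Etv5 to 0.9751 and Fgfr1 to 0.1764, moved Fgfrl1 to -0.0114, and left 2 members lower in oligodendrocyte precursor-like cells. A pseudocount of 1 CPM gave a median of -0.3030 and 2 lower members in neuron-like cells, and 20 CPM left 3 lower members in astrocyte-like cells and 0 in tanycyte-like and oligodendrocyte precursor-like cells. Thinning gave 1 higher member in oligodendrocyte precursor-like cells and 1 lower member in neuron-like cells. In tanycyte-like cells 1 lower member was left with clusters weighted equally (1 was then higher), with a minimum of 200 UMIs, with centring on the median gene, without Scrublet doublets and without the 4% highest scores, and 0 without the 25% of cells richest in neuron marker UMIs. In oligodendrocyte precursor-like cells the lower members numbered 0 with cells weighted equally and with a minimum of 200 UMIs, 2 with no minimum, and 2 (with 1 higher) without those neuron-rich cells. The cause of these moves was not tested. The 4% and neuron-rich alternatives, the one without a shallow astrocyte cluster and the one without the Agrp cluster were chosen after seeing the data. Depth limits what can be said of Spry1, Spry4 and Il17rd in tanycyte-like cells and of every member but Fgfr1 in single neurons.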

Other observations

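Fgfrl1 was lower in dHet in a class outside the main comparisons as well. In oligodendrocyte-like cells (30 control and 39 dHet) it stood at 68.4 and 22.0 CPM, with 38 and 15 UMIs and a ratio of 0.322 (0.164 to 0.599). The 5 richest cells of each library together held 58.5% of these UMIs. Pars tuberalis-like cells (63 and 32) had higher values in dHet for Fgfr1, at 78.2 and 161 CPM (2.05, 1.41 to 2.98), Dusp6, at 65.7 and 118 CPM (1.80, 1.17 to 2.74), and Il17rd, at 45.3 and 84.8 CPM (1.87, 1.11 to 3.11). For these genes, in that order, the 5 richest cells of each library together held 45.9%, 54.6% and 54.4% of the UMIs. The pars tuberalis-like class joins a cluster led by Cga and Tshb (39 and 14 cells) with a cluster led by Wfdc2 and Epcam (24 and 18 cells). Their shares differ between the libraries. At Leiden resolution 2 an Epcam and Atf3 cluster held 21 and 4 cells. An unnamed cluster led by Fmo2, Wfdc2 and Krt14, without class markers among its leading genes, then held 3 and 14. How many cells of the class fell into the unnamed cluster was not counted. The part of this mix in the higher dHet values was not tested.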
